A study of Rattus norvegicus with 8 samples.

Results

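Contractile genes of striated and smooth muscle were followed in fetal rat testis after exposure of the dam to dibutyl phthalate (DBP), a plasticizer. The set held 33 genes out of 14217 with a probe set of their own on the array, 19 of striated muscle and 14 of smooth muscle. Each gene was represented by 1 probe set, chosen by the highest mean over all 8 arrays, with no regard to exposure. The gene names had been proposed with earlier results of these arrays known, Smpx among them, so counts over the set are given as a description. Testes came from male Fischer 344 fetuses at gestational day 20. In the DBP group (4 samples) the dams received 50 mg/kg of body weight daily from gestational day 12 to 20, dissolved in corn oil. In the vehicle group (4 samples) they received corn oil only, at the same 1 ml/kg by gavage, and testes of both groups were taken 6 h after the last dose. The labels do not say how many fetuses or litters made up a sample, so p-values measure the spread between these samples, which may be technical.

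In striated muscle, myosin thick filaments pull on actin thin filaments inside sarcomeres that are bordered by Z-discs and held at their centre by the M-band. Troponin and tropomyosin make this pull depend on calcium. Smooth muscle cells lack sarcomeres; their contraction is started by phosphorylation of the myosin light chain, and they carry their own actins, myosin and binding proteins. In the testis the smooth muscle genes are known from peritubular myoid cells, which surround the seminiferous cords, and from blood vessel walls. Sarcomeres are a feature of skeletal and heart muscle and of no cell type usually described in the fetal testis.

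Promoter windows of 3 of the 4 genes that rose are shown, because muscle genes are often bound near their starts by the factors MEF2, SRF and the MyoD family. RefSeq windows on GRCr8 run from 250 bases before to 50 bases after the start, in the direction of the gene, and were matched for 25 of 33 members. The others were Myom2, Tnnc1, Tnnt3, Pdlim3, Myh11, Myl9, Tagln and Lmod1. Capitals mark every match, on either strand, to the MEF2 site, the CArG box (the SRF site), the E-box CANNTG or the M-CAT element CATTCC. The Smpx window is chrX:41107088-41107387 (minus strand), that of Ldb3 is chr16:9924630-9924929 (minus strand) and that of Tnni1 is chr13:49781279-49781578 (plus strand).
Smpx: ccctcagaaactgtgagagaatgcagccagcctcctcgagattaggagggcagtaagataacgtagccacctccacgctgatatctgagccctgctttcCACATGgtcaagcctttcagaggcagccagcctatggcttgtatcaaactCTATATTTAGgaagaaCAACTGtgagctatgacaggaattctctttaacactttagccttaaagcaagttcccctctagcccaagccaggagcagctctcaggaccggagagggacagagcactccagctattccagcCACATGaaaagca
Ldb3: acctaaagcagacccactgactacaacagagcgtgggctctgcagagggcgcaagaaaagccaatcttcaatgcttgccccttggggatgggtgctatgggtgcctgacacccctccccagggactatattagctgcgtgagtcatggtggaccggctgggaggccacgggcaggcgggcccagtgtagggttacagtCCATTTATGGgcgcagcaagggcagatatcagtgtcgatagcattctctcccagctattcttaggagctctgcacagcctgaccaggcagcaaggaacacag
Tnni1: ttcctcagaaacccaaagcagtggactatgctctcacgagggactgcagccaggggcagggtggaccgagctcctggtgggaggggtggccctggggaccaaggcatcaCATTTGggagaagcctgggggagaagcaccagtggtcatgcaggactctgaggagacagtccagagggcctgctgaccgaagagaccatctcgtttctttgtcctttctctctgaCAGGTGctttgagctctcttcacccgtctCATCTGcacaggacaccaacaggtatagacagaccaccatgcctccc
In these windows no match overlapped another. Smpx held a MEF2 site whose first base lies 101 bases before the start, and 3 E-boxes. Ldb3 held a CArG box 52 bases before the start, and Tnni1 held 3 E-boxes. A MEF2 site was present for 3.66% of the 27457 genes with a window and for 2 members, Smpx and Myl1. A CArG box was present for 1.77% of genes and for 2 members, Ldb3 and Acta1. E-boxes were found for 73.2% of genes and 21 of 25 members, and the M-CAT element for 15% of genes and 5 members, Acta1, Acta2, Tpm1, Cald1 and Mylk. These are matches of letters, not sites shown to be bound.

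Array medians lay between 6.08 and 6.13 on the log2 scale of the authors' RMA values. Correlations between arrays were 0.9977 to 0.9982 within vehicle, 0.9916 to 0.9969 within DBP and 0.9914 to 0.9964 between groups. DBP replicates 3 and 4 stood apart. Their poly-A spike-ins, bacterial RNAs added before labelling, averaged 4.84 and 4.79 over 24 probe sets, against 6.46 to 7.17 on the other 6 arrays. Their spread over all values was narrower too (SD 2.19 and 2.18, against 2.23 to 2.25), and dim probe sets read higher on them: over all 11113 probe sets with a mean of 5 or less, the median change against vehicle was 0.10 in DBP replicates 3 and 4 and 0.02 in DBP replicates 1 and 2. Of 10 testis identity genes 7 were measured, among them Insl3, Cyp11a1 and Star. Their mean over the list was 11.04 to 11.18 in DBP arrays and 11.11 to 11.20 in vehicle arrays. None passed the linear model over all genes. Sycp3 was higher (log2 change 0.31) and Insl3 lower (-0.34) at an unadjusted p under 0.05, against 11.3% and 7.84% of all genes. Every DBP array of Insl3 lay below every vehicle array (adjusted p = 0.0732), where 5.56% of all genes had DBP lower without overlap.

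A small group of striated muscle genes was higher after DBP. Smpx (3.15-fold), Myom2 (1.73-fold), Ldb3 (1.47-fold) and Tnni1 (1.32-fold) rose, and 0 members fell. That is 4 of 33 members at an adjusted p under 0.05 from limma, a linear model with moderated variances fitted to all 31042 probe sets, against 1.22% of all genes in either direction and 0.598% higher. Because the members were proposed with this comparison known, nothing is read from that share. The 4 were all striated genes (4 of 19); of the 14 smooth muscle genes 0 passed, and 5 lay under 0.05 without adjustment, all with DBP higher (Myl9, Tpm2, Acta2, Actg2 and Csrp1). Without adjustment 11 members were higher at p under 0.05 and 0 lower, against 11.3% of all genes higher and 7.84% lower. The groups did not overlap for 6 members, all with DBP higher, against 7.31% of all genes. The median change was 0.13 for the striated and 0.14 for the smooth muscle genes, next to 0.02 over all genes. Just inside the threshold lay Ldb3 (adjusted p = 0.0305) and just outside it Actn2 (0.0863). In bulk tissue, more cells of a type and more RNA per cell cannot be told apart.

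**Figure D1:**
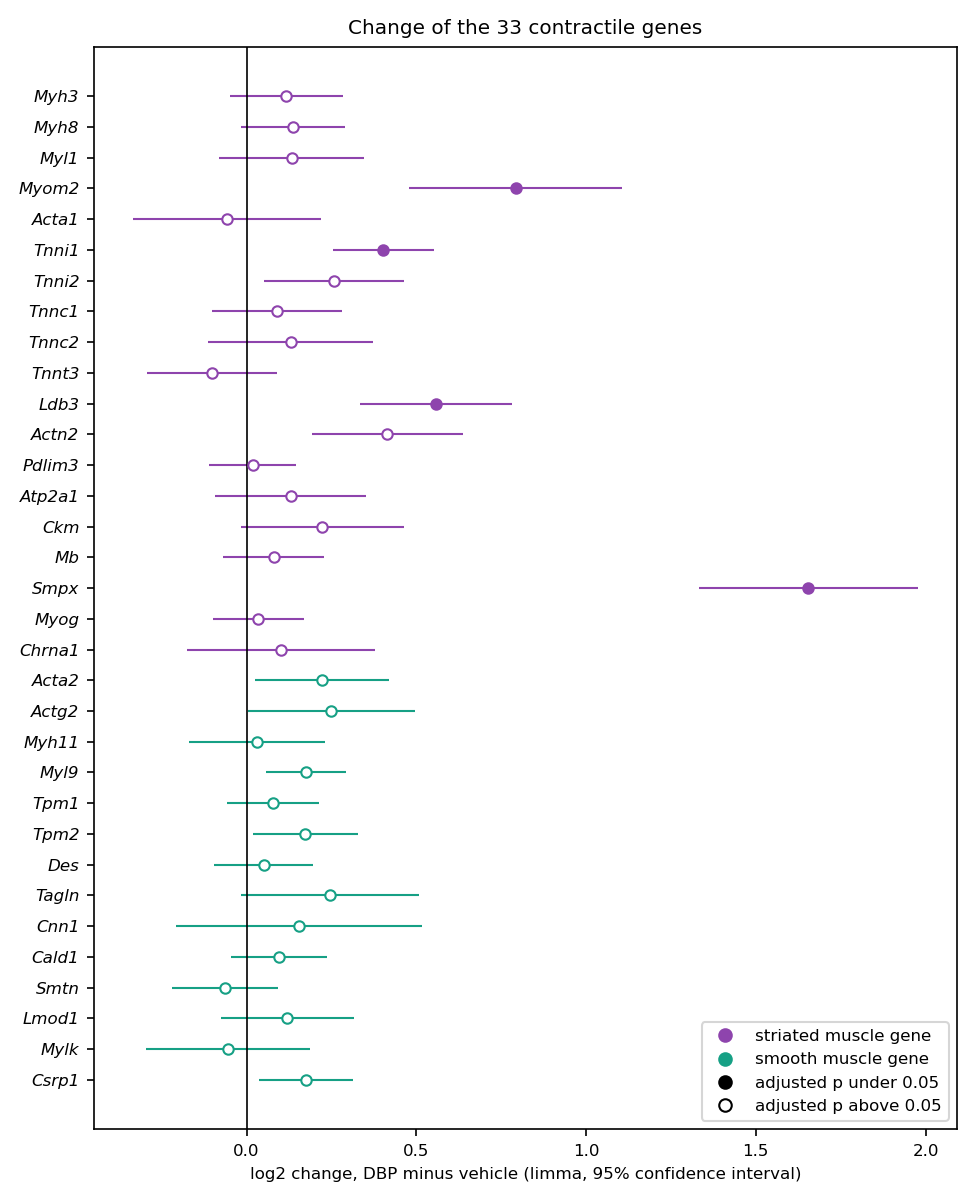
Log2 change, DBP minus vehicle, of the 33 genes with the 95% confidence interval of the limma model; striated genes are purple, smooth muscle genes green, and filled points have an adjusted p under 0.05. The 4 filled points are Smpx, Myom2, Ldb3 and Tnni1, with changes of 0.40 to 1.66.

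Smpx, which encodes a small protein of striated muscle linked to its costameres, was the member with the largest change. Its log2 signal was 7.88, 7.42, 7.63 and 8.10 in DBP replicates 1 to 4, against 6.35, 6.18, 6.0 and 5.88 in vehicle replicates 1 to 4. Every DBP array lay more than 1 log2 unit above the highest vehicle array. The change was 1.66 ± 0.15 (SE), 3.15-fold with a 95% confidence interval of 2.52 to 3.94, which ranked 3 among the 85 genes that rose. It was 1.55 in DBP replicates 1 and 2 and 1.76 in DBP replicates 3 and 4, so it was present on the arrays with ordinary spike-in signal. The adjusted p stayed under 0.05 in each of 22 alternatives, from 0.000285 to 0.0431. Smpx had 1 probe set, so no second probe set bears on it.

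Among the thick filament and M-band genes, Myom2 (myomesin 2, which cross-links myosin at the M-band) rose. It read 9.45, 9.27, 8.95 and 9.74 in DBP arrays, against 8.70, 8.61, 8.46 and 8.47 in vehicle arrays. The groups were apart, with a wider spread after DBP (SD 0.33, against 0.12 in vehicle, n = 4 each). The change of 0.79 ± 0.14 (SE) had an adjusted p of 0.0298. The call ended without any 1 vehicle array (0.0746, 0.079, 0.119 and 0.0988 without vehicle replicates 1 to 4) and without DBP replicate 1 (0.075). It also ended with the spike-in term (0.0666), which only marked DBP replicates 3 and 4 and held no spike-in values. With that term the change, 0.80, was that of DBP replicates 1 and 2 against vehicle. In all alternatives the change stayed between 0.66 and 0.93. The change was 0.80 (adjusted p = 0.00619) in DBP replicates 1 and 2 and 0.79 (0.0323) in DBP replicates 3 and 4.

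The 3 other genes of that group did not pass. Myh3, the embryonic skeletal myosin heavy chain, read 5.42 to 5.61 in DBP arrays, against 5.22 to 5.50 in vehicle arrays. Myh8, the perinatal heavy chain, read 6.18 to 6.38, against 6.03 to 6.24. Both overlapped between groups, as did Myl1, the essential light chain of fast muscle (6.34 to 6.64 after DBP, 6.15 to 6.47 in vehicle). Their changes were 0.12, 0.14 and 0.13, with adjusted p of 0.315 to 0.473. A probe set that the annotation assigns jointly to Myh2, Myh1 and Myh8 gave 0.02.

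Thin filament genes split by gene. Tnni1, the slow skeletal isoform of the inhibitory troponin subunit and the isoform of fetal heart, read 7.83, 7.82, 8.06 and 7.99 in DBP arrays, against 7.56, 7.51, 7.52 and 7.50 in vehicle arrays. The vehicle arrays lay within 0.06 of each other and below every DBP array. The change was 0.40 ± 0.07 (SE, adjusted p = 0.0223), and the second probe set of the gene gave the same 0.40 (adjusted p = 0.0102), again without overlap. The brighter probe set gave 0.30 (adjusted p = 0.0352) in DBP replicates 1 and 2 and 0.50 (0.00672) in DBP replicates 3 and 4. The call of the brighter probe set ended without any 1 vehicle array (0.0723, 0.0746, 0.0953 and 0.0804 without vehicle replicates 1 to 4).

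Tnni2, the fast skeletal counterpart, read 5.63, 5.34, 5.82 and 5.71 in DBP arrays, against 5.32 to 5.40 in vehicle arrays. DBP replicate 2 lay inside the vehicle range and the other DBP arrays above it. Its change of 0.26 did not pass (adjusted p = 0.197); it was 0.12 in DBP replicates 1 and 2 and 0.40 in DBP replicates 3 and 4. Without DBP replicate 2 it passed (0.35, adjusted p = 0.0354).

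The calcium-binding troponin C genes gave 0.09 for Tnnc1 (slow and cardiac form, adjusted p = 0.59) and 0.13 for Tnnc2 (fast form, 0.539). Tnnt3, the tropomyosin-binding subunit of fast muscle, gave -0.10, and its second probe set 0.05. Acta1, the skeletal actin, read 3.54 to 3.70 in DBP arrays, against 3.46 to 4.12 in vehicle arrays (change -0.06, adjusted p = 0.83). The groups overlapped for each of these 4 genes.

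**Figure D2:**
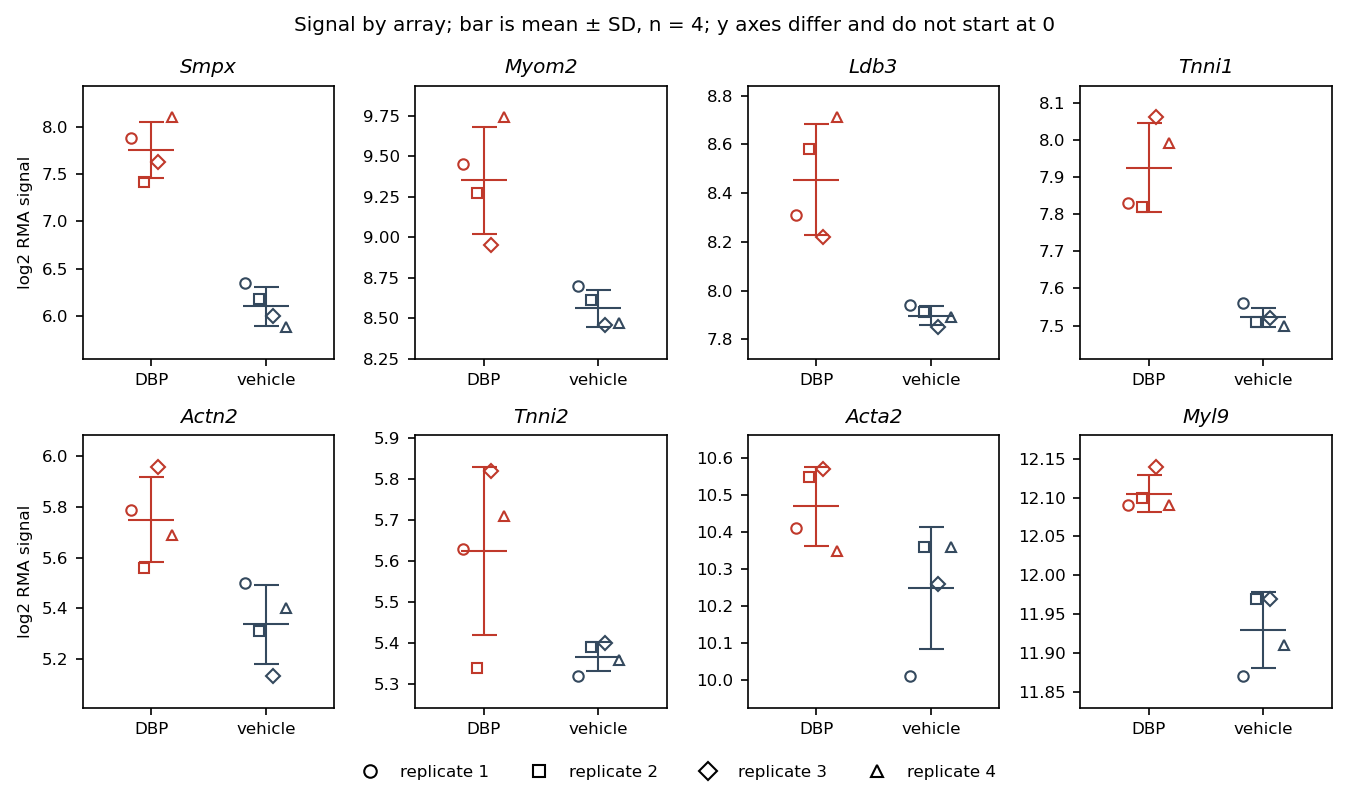
Log2 RMA signal of 8 genes on each array, with DBP left of vehicle, a symbol per replicate, and the mean ± SD (n = 4 per group). Smpx, Myom2, Ldb3, Tnni1, Actn2 and Myl9 show no overlap, whereas the lowest DBP array of Tnni2 (5.34) and of Acta2 (10.35) lies inside the vehicle range.

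Z-disc genes included a rise and a near miss. Ldb3 (also called ZASP or Cypher), a PDZ and LIM protein that anchors alpha-actinin, read 8.31, 8.58, 8.22 and 8.71 in DBP arrays, against 7.94, 7.91, 7.85 and 7.89 in vehicle arrays. All 4 DBP arrays were above the vehicle arrays, and the vehicle arrays were close together (SD 0.23 after DBP, 0.04 in vehicle). The change was 0.56 ± 0.10 (SE, adjusted p = 0.0305). It was 0.55 (adjusted p = 0.0175) in DBP replicates 1 and 2 and 0.57 (0.0234) in DBP replicates 3 and 4. The call ended without any 1 vehicle array (0.0928, 0.0841, 0.123 and 0.0988 without vehicle replicates 1 to 4), and with the spike-in term (0.0722). The change with that term was the same 0.55 as in DBP replicates 1 and 2.

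Ldb3 had 6 probe sets, and they did not give 1 answer. Next to the 0.56 of the brightest, 2 others with no overlap between groups gave 0.48 and 0.41 (adjusted p = 0.0992 and 0.121). The remaining 3 gave 0.23, 0.09 and 0.03, at mean signals of 4.43, 6.62 and 3.57, so the first and last of them were dim. The mean over the 6 gave 0.30 and did not pass (adjusted p = 0.112). The files do not say which exons each probe set covers.

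Actn2, the alpha-actinin of the Z-disc, read 5.79, 5.56, 5.96 and 5.69 in DBP arrays, against 5.50, 5.31, 5.13 and 5.40 in vehicle arrays. The groups were apart by 0.06 log2 units at their nearest, and the change of 0.42 ± 0.10 (SE) had an adjusted p of 0.0863. It was 0.34 (adjusted p = 0.169) in DBP replicates 1 and 2 and 0.49 (0.031) in DBP replicates 3 and 4, the arrays with low spike-in signal. It passed without DBP replicate 2 (0.48, adjusted p = 0.046). Pdlim3, another PDZ and LIM protein of the Z-disc, gave 0.02 (95% confidence interval -0.11 to 0.14), with all 8 arrays between 10.70 and 10.86.

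**Figure D3:**
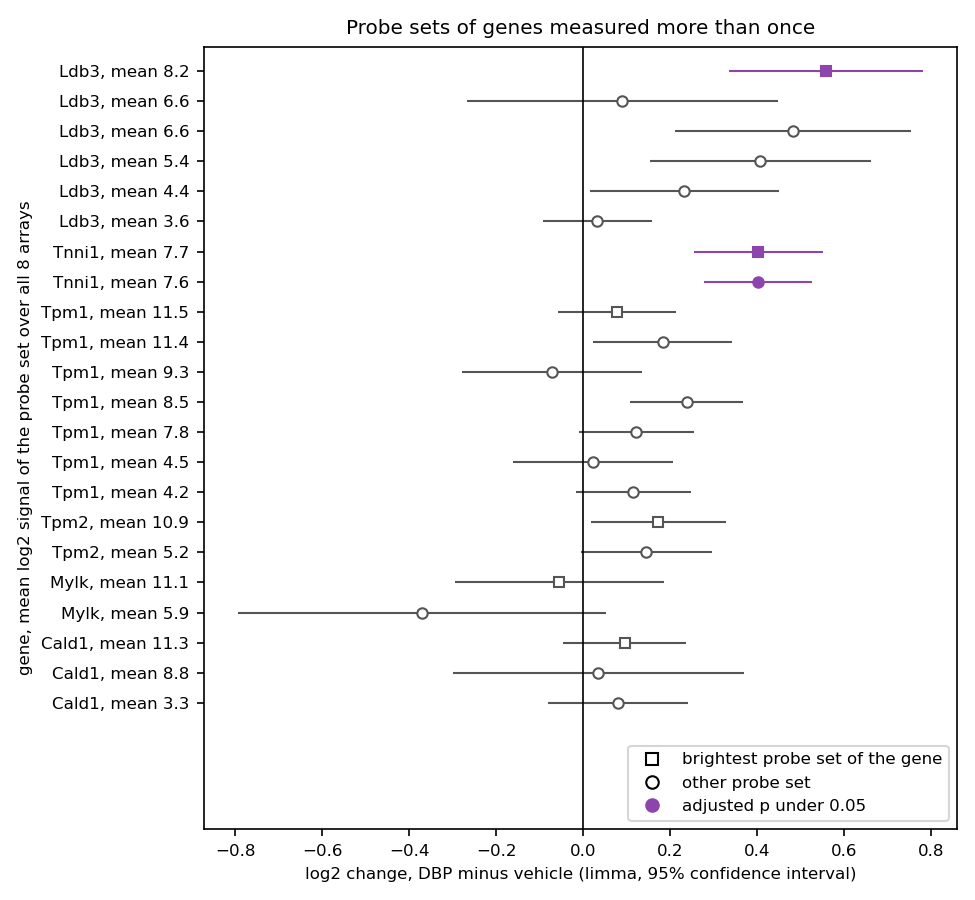
Log2 change, DBP minus vehicle, with its 95% confidence interval, of each probe set of 6 genes measured more than once; squares are the brightest probe set and the row label gives the mean log2 signal over all 8 arrays. Both Tnni1 probe sets lie at 0.40, whereas the Ldb3 probe sets run from 0.03 to 0.56 and the Tpm1 probe sets from -0.07 to 0.24.

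The 3 genes of calcium, energy and oxygen handling did not pass, nor did Myog and Chrna1, which were grouped with Smpx as other striated genes; all of these but Myog had means of 5 or less. Ckm, the muscle creatine kinase, read 4.74, 4.75, 5.08 and 4.87 in DBP arrays, against 4.45, 4.50, 4.72 and 4.88 in vehicle arrays, with overlapping groups (change 0.22, adjusted p = 0.304). Mb, the oxygen store myoglobin, gave 0.08 and Atp2a1, the calcium pump of fast muscle, 0.13. Myog, a myogenic transcription factor, read 5.38 to 5.58 in DBP arrays, against 5.42 to 5.50 in vehicle arrays (0.04, adjusted p = 0.777). Chrna1, the acetylcholine receptor subunit of the neuromuscular junction, gave 0.10 (adjusted p = 0.677).

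Of the 33 members 27 had a mean above 5, and the 6 below were Acta1, Tnnt3, Ckm, Atp2a1, Mb and Chrna1. For Atp2a1, Mb and Chrna1 the change was -0.04, -0.02 and -0.04 in DBP replicates 1 and 2 and 0.30, 0.18 and 0.25 in DBP replicates 3 and 4, the arrays on which dim probe sets read higher. Ckm gave 0.11 and 0.34 in the same pairs.

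The DBP arrays did not move together. DBP replicate 3 had the highest DBP value for 13 of the 19 striated genes, among them Tnni1, Tnni2, Tnnc1, Tnnc2, Actn2, Ckm and Atp2a1. DBP replicate 4 was highest for Smpx, Myom2, Ldb3 and Myh3. Over the striated genes the median difference from the vehicle mean was 0.11, 0.02, 0.32 and 0.15 in DBP replicates 1 to 4, against -0.05 to 0.05 in vehicle arrays. For the smooth muscle genes it was 0.16, 0.24, 0.18 and 0.01 in DBP replicates 1 to 4, against -0.12 to 0.07 in vehicle arrays. Vehicle replicate 1 was the low end, with 1 of 14 smooth muscle genes above its group's mean.

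**Figure D4:**
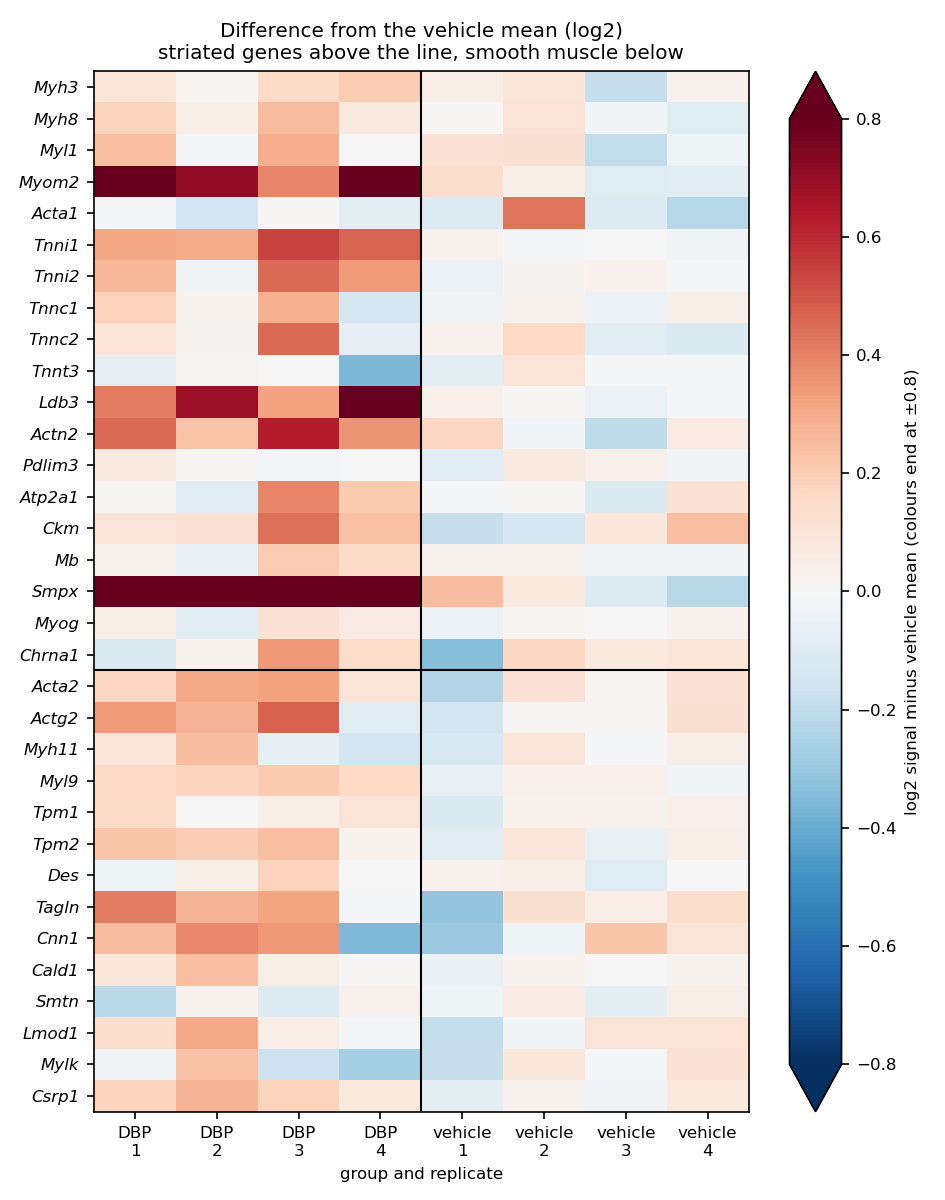
Difference of each array from the vehicle mean (log2; red above, blue below, colours end at 0.8 either way) for the 33 genes in rows and the 8 arrays in columns, DBP left. Smpx is red across all 4 DBP columns, the third DBP column is the reddest for most striated genes, and the fourth is close to white for most smooth muscle genes (median 0.01).

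The 7 smooth muscle filament genes had a median change of 0.17, all above 0, and none passed. Acta2, the smooth muscle actin by which myoid cells are usually identified, read 10.41, 10.55, 10.57 and 10.35 in DBP arrays, against 10.01, 10.36, 10.26 and 10.36 in vehicle arrays. The groups overlapped, and vehicle replicate 1 was the lowest array (change 0.22, 95% confidence interval 0.02 to 0.42, adjusted p = 0.235). Another 5 probe sets are assigned jointly to Acta2 and the cardiac actin Actc1, and they gave 0.03 to 0.19, none past the threshold. Actg2, the enteric smooth muscle actin, gave 0.25 (adjusted p = 0.27). Actins are close in sequence, so probe sets of one can take up RNA of another.

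Myl9, the regulatory light chain whose phosphorylation starts contraction, read 12.09, 12.10, 12.14 and 12.09 in DBP arrays, against 11.87, 11.97, 11.97 and 11.91 in vehicle arrays. The groups did not overlap, and the spread was small (SD 0.02 after DBP, 0.05 in vehicle). The change of 0.18 ± 0.05 (SE, adjusted p = 0.139) did not pass. It passed with limma's trend and robust options set together (adjusted p = 0.0354).

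Myh11, the smooth muscle myosin heavy chain, gave 0.03 (95% confidence interval -0.17 to 0.23) and Des, the intermediate filament desmin, 0.05 (-0.10 to 0.20). The groups overlapped for both genes. The tropomyosins, which lie along the actin filament, gave 0.08 for Tpm1 and 0.17 for Tpm2. The 7 Tpm1 probe sets ran from -0.07 to 0.24 and none passed; the gene is spliced into many forms.

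Proteins that bind and regulate smooth muscle filaments did not pass. Tagln (transgelin, SM22) read 11.45, 11.31, 11.35 and 11.02 in DBP arrays, against 10.72, 11.16, 11.09 and 11.18 in vehicle arrays. Vehicle replicate 1 was lowest and DBP replicate 4 lay inside the vehicle range (change 0.25, adjusted p = 0.301). Cnn1 (calponin 1) read 7.64, 7.78, 7.74 and 7.04, against 7.10, 7.36, 7.62 and 7.50 in vehicle arrays. Its lowest value of all 8 was in DBP replicate 4, and the change was 0.32 in DBP replicates 1 and 2 and -0.01 in DBP replicates 3 and 4.

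Csrp1, a LIM protein of smooth muscle, gave 0.18 (adjusted p = 0.195), Lmod1, a leiomodin that nucleates actin filaments, 0.12, and Cald1, caldesmon, 0.10. Smtn, smoothelin of contractile smooth muscle, gave -0.06 and Mylk, the kinase of the myosin light chain, -0.06. The second Mylk probe set gave -0.37 (adjusted p = 0.327). Over the 9 members with several probe sets, 15 of the 19 other probe sets were higher and 4 lower, and 1 passed, against 1.07% of all probe sets. Of all 31042 probe sets 16895 were higher and 14147 lower.

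Other genes of the same tissues were read from lists. Of 57 further skeletal and cardiac muscle genes 54 were measured, 47 higher and 7 lower, with a median change of 0.13 and 30 with a mean above 5. Over all 14217 genes 8070 were higher and 6147 lower. Of the 11113 probe sets with a mean of 5 or less 7986 were higher and 3127 lower. In the list none rose past the threshold and 1 fell, against 0.626% of all genes lower. That gene was Myh6, the alpha myosin heavy chain of heart muscle. It read 9.92, 10.22, 10.07 and 10.13 in DBP arrays, against 10.65, 10.50, 10.46 and 10.45 in vehicle arrays. Every DBP array was below every vehicle array, where 5.56% of all genes had DBP lower without overlap. Myh6 fell by 0.43 ± 0.08 (SE, adjusted p = 0.0298) on the log2 scale, opposite in sign to Myom2, and its second probe set gave -0.53 (adjusted p = 0.111), also without overlap. In DBP replicates 1 and 2 the brighter probe set gave -0.445 and the second -0.245. In DBP replicates 3 and 4, the arrays with low spike-in signal, they gave -0.415 and -0.805. The call of Myh6 ended without any 1 vehicle array (0.102, 0.0822, 0.0955 and 0.0732 without vehicle replicates 1 to 4) and without DBP replicate 1 (0.0576) or DBP replicate 3 (0.0747). Its close relative Myh7, the slow heavy chain, also named after its values were seen, gave 0.06 (adjusted p = 0.74).

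The next genes of that list by p, named after their values were seen, were Pln, the phospholamban that restrains the calcium pump of heart and slow muscle (0.40, adjusted p = 0.055), Myoz2, a Z-disc protein (0.35, 0.116), Xirp1 (0.26, 0.119), Actn3, the fast muscle alpha-actinin (0.25, 0.122), and Mybpc2, the fast myosin-binding protein C (0.30, 0.128). Pln read 5.78 to 5.93 in DBP arrays, against 5.24 to 5.58 in vehicle arrays, without overlap. Myoz2 and Xirp1 had means under 5. Without adjustment 18 of the 54 genes were higher and 3 lower, next to 11.3% and 7.84% of all genes. The mean over the list was 5.59 to 5.65 in DBP arrays and 5.48 to 5.51 in vehicle arrays, also without overlap. The mean over all 14217 genes did not overlap either (7.17 to 7.18 in DBP arrays and 7.15 to 7.16 in vehicle arrays). The median change over the list was 0.10 in DBP replicates 1 and 2 and 0.15 in DBP replicates 3 and 4. Over all probe sets with a mean of 5 or less it was 0.02 and 0.10, and over those above 5 it was 0.01 and -0.04. The part of dim probe sets in the list mean was not tested. The part of RNA from other muscle in the 4 rises was not tested. Myod1, the defining skeletal muscle factor and named here for that role after its values were seen, had a mean of 3.31, also under 5. It read 3.24 to 3.33 in DBP arrays and 3.31 to 3.34 in vehicle arrays, and at so dim a signal nothing is read from it.

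Of 29 measured smooth muscle and actin cytoskeleton genes 0 passed in limma, with a median of 0.08, and 2 were higher and 1 lower without adjustment. For this list and those below, the shares over all genes were 11.3% higher and 7.84% lower without adjustment. The smallest p were those of Itga7, a laminin receptor subunit (0.24, adjusted p = 0.0804), and Palld, the actin cross-linker palladin (-0.60, 0.146), and then those of Pdlim1 (0.13, 0.234) and Lpp (0.23, 0.29). Among 11 contraction signalling genes 0 passed and 1 was higher without adjustment. Edn1, the vasoconstrictor endothelin 1, gave 0.41 (adjusted p = 0.111); Avpr1a, a vasopressin receptor, gave 0.19 and Ppp1r12a, a subunit of myosin phosphatase, -0.13. Of 8 regulators around SRF 0 passed, with 1 higher and 1 lower without adjustment. Srf itself gave -0.10 (0.411), its cofactor Myocd -0.37 (0.261), the TEAD cofactor Vgll3 0.22 (0.389) and the forkhead factor Foxo4 0.37 (0.0992). Of 11 myogenic regulators 0 passed, with 1 higher and 2 lower without adjustment. Mef2a gave -0.20 (0.163), Mef2c 0.20 (0.226) and Id2, an inhibitor of E-box binding, -0.51 (0.167). Myf6, a late myogenic factor, gave 0.11 (0.314).

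Marker lists of other cell types were read in the same way, and no single gene on them passed. Without adjustment 11.3% of all genes were higher and 7.84% lower. The lists were not tested as sets. The part of RNA from these cell types in the rises was not tested. Of 8 genes of pericytes and vascular mural cells 0 passed (median -0.02; 2 higher and 2 lower without adjustment), with Notch3 at 0.30 and Cspg4 at -0.18; the list mean was 7.62 to 7.85 in DBP arrays and 7.65 to 7.73 in vehicle arrays. Of 8 measured genes of mesonephric duct and epididymis, whose wall is muscular, 0 passed. Their median change was 0.13, next to 0.13 over all contractile members, with 6 genes higher and 2 lower. At an unadjusted p under 0.05, 2 were higher and 0 lower, and Pax8 gave 0.26 (adjusted p = 0.205). The list mean was 5.70 to 5.89 in DBP arrays and 5.54 to 5.75 in vehicle arrays. Of 6 genes of nerve and Schwann cells 0 passed (median 0.07, with 1 higher and 1 lower without adjustment). The higher was Erbb3 at 0.47 (adjusted p = 0.102) and the lower S100b at -0.27 (0.163). The list mean was 6.08 to 6.20 in DBP arrays and 6.06 to 6.11 in vehicle arrays.

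**Figure D5:**
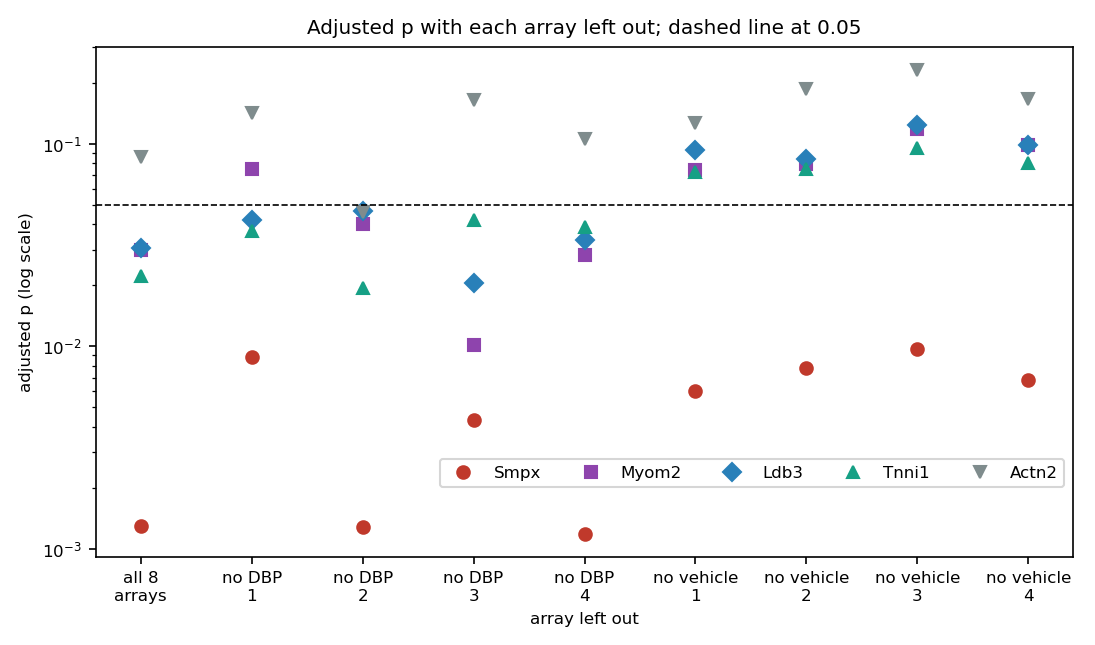
Adjusted p (limma, log axis) of 5 genes over all 8 arrays and with each array left out in turn; the dashed line is at 0.05. Smpx stays below the line throughout (0.00119 to 0.00965 with an array left out), whereas Myom2, Ldb3 and Tnni1 lie above it whenever a vehicle array is missing.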

How the data were processed

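RNA of 8 fetal testis samples was measured on Affymetrix rat expression arrays, 1 array per sample. The deposited values are log2 signals per probe set. RMA is named in the submitters' processing notes, with no version; scanner files of the arrays were not used here. Of 31099 probe sets 57 controls were set aside and 31042 tested. The platform annotation gave 20826 probe sets 1 gene symbol, 436 several and 9780 none. Groups came from the sample titles. DBP was compared with vehicle over all probe sets with limma 3.58.1 (R 4.3.3; linear model, empirical Bayes moderation, two-sided), with Benjamini-Hochberg adjustment and a threshold of 0.05. Every p comes from that model, adjusted over all probe sets unless called unadjusted. The code was tested on simulated data.

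Members, lists and tests were chosen with earlier results of these data known. Named genes were all members and, of each other list, those past the threshold or otherwise up to 4 with the smallest p; Pln, Myoz2, Xirp1, Actn3, Mybpc2, Myh7 and Myod1 are outside that rule and were named after their values were seen. The number of arrays limits the precision. Alternatives covered normalization, signal filters, the variance prior, covariates, a replicate block, array weights, subsets of arrays and the choice of probe set. Promoter windows are from RefSeq, GRCr8. Tables and figures were made with Python 3.11.15, pandas 2.3.3 and matplotlib 3.10.9.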

Additional observations from a re-analysis of the deposited data

Results flagged for a closer look

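In 6 of 142 groups of 4 arrays, each a gene in DBP or in vehicle, 1 array lay far from the others by Dixon's ratio of its gap to the range; chance gives this in about 5% of groups. Among the contractile genes this was Tpm1, at 11.34 in vehicle replicate 1, below the other vehicle arrays (11.48 to 11.49). Among genes of the other lists, Vgll3 was 4.71 in DBP replicate 3, the lowest of its group. Foxo4 was 7.70 in vehicle replicate 2, the highest of its group. Myoz2 was 3.25 in vehicle replicate 1, the lowest of its group, while Myf6 (3.09) and Sycp3 (9.17) were highest in that array.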

How the results depend on the processing

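Smpx was called in all 22 alternatives, and the median change over the 33 genes stayed between 0.10 and 0.17. The members called numbered 4 with all arrays, 2 with a replicate block (Myom2 and Smpx), 2 with the spike-in term (Tnni1 and Smpx), 1 with unmoderated t statistics (Smpx) and 1 to 6 with an array left out. The number was 1 (Smpx) without any single vehicle array and 6 without DBP replicate 2, which added Actn2 and Tnni2. With DBP replicates 1 and 2 against vehicle the same 4 members were called as with all arrays, and with DBP replicates 3 and 4 there were 6. The spike-in term gave the same changes as DBP replicates 1 and 2 against vehicle, because it only marked DBP replicates 3 and 4. Only the variance behind the p-values differed between these settings. The probe sets called numbered 331 with all arrays, 74 with unmoderated t statistics and 175 with the replicate block. They numbered 577 with DBP replicates 1 and 2 against vehicle, 4129 with DBP replicates 3 and 4, and 82 to 606 with an array left out. Without vehicle replicates 1 to 4 in turn they numbered 114, 122, 82 and 118, so calls fell over all probe sets and not only among the members. Arrays with the same replicate number did not deviate together (correlations 0.11, -0.08, 0.10 and -0.02 for replicates 1 to 4), so the block has no basis beyond the number. The call of Myh6 ended with the block, the RNA integrity covariate, the spike-in term, unmoderated t statistics and DBP replicates 1 and 2 alone. No gene past the threshold changed sign. Of the others, with the spike-in term or DBP replicates 1 and 2 alone, Atp2a1 (-0.0375), Mb (-0.015), Myog (-0.02), Chrna1 (-0.0425), Tubb3 (-0.0875) and Mylk (0.105) changed sign. With DBP replicates 3 and 4 alone so did Myh11 (-0.11), Pdlim3 and Cnn1 (-0.005 each) and Star (-0.01). Mylk turned with the RNA integrity covariate (0.045), Myh11 (-0.0175) and Srf (0.0417) with the mean over probe sets. With an array left out, values ran from -0.134 to 0.0858 for Acta1, -0.0125 to 0.0408 for Pdlim3, -0.0117 to 0.174 for Chrna1, -0.0417 to 0.0917 for Myh11 and -0.152 to 0.015 for Mylk. The causes were not tested. A signal filter (mean above 5) left 27 members.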
